A study of Mus musculus with 9 samples.

Results

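Interferon-stimulated genes are the genes that cells switch on when interferon binds its receptor. The 41 genes described here were taken by symbol from a table of read counts for 52550 mouse genes, and all 41 had enough counts to be tested among the 22430 genes that passed the filter on low counts. They fall into 33 genes of the antiviral type I interferon response, among them the Ifit, Oas and Mx families, and 8 genes known best as targets of interferon-gamma, namely Gbp2, Gbp3, Gbp5, Gbp7, Igtp, Irgm1, Cxcl9 and Cxcl10. The groups are not exclusive, since type I interferon also raises Cxcl10, Irgm1 and several Gbp genes. The question was whether these genes differed among the groups, and whether the antiviral and the interferon-gamma genes behaved alike.

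RNA was sequenced from the dermis of mouse ears in 9 libraries, 3 in each of 3 groups. All mice were labelled C57BL/6 (C57BL/6J in the study's methods), 8 weeks old and labelled as carrying no genetic change. The VAS+H2O group received vaseline on the skin for 5 days and water by gavage for 10 days, and served as the control. The IMQ+H2O group received imiquimod cream for 5 days and water by gavage for 10 days, and is a model of psoriasis-like dermatitis. The IMQ+XYF group received imiquimod cream for 5 days and 200 µl of Xiao-Yin-Fang (XYF) at 23.3 mg/g by gavage for 10 days. XYF is a decoction of the herbs Isatis tinctoria, Scutellaria baicalensis, Salvia miltiorrhiza, Sophora flavescens and Rheum officinale. The study's methods and its legend of the ear experiment differ in the number of gavages a day. Vaseline with XYF was not among the groups, so XYF was measured only on top of imiquimod.

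Imiquimod is an agonist of Toll-like receptor 7, a sensor of single-stranded RNA that signals through Myd88 and can lead to the release of type I interferon, above all from plasmacytoid dendritic cells. Type I interferon acts through a factor that holds Stat2 and Irf9 and binds the interferon-stimulated response element (ISRE). Interferon-gamma, made by T and NK cells, acts through the gamma-activated site (GAS) and through Irf1, which binds ISRE-like elements. In psoriatic skin both programmes are known to be active beside the IL-17 response.

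The promoters are shown first, because the ISRE is the element by which many of these genes are known, although it was matched in fewer than all of them. RefSeq promoter sequences (GRCm38.p6) were matched for 32 of the 41 genes, and the 250 bases before the start were searched on both strands. A gene counted if any of its promoters matched. An ISRE, spelled GAAANNGAAA, was found in 11 of 24 antiviral genes (45.8%) and in 7 of 8 interferon-gamma genes (87.5%), against 3.46% of 27025 genes searched over the same length. A GAS, spelled TTCNNNGAA, was found in 5 of 24 (20.8%) and 3 of 8 (37.5%), against 8.13% of the 27025 genes. The stretches below run 5′ to 3′ on the strand of the gene, and capitals mark the ISRE in either orientation, with overlapping copies merged. The first 4 genes are antiviral and the last 3 are interferon-gamma genes. Isg15 encodes a ubiquitin-like protein that is joined to other proteins, Ifit1 a binder of viral RNA caps, Rsad2 the antiviral enzyme viperin, and Bst2 the tetherin that holds budding virus at the cell surface. Igtp and Gbp7 encode GTPases that act on vacuoles holding microbes, and Cxcl10 a chemokine that draws T cells through CXCR3.
Isg15, chr4:156200862-156200921, minus strand: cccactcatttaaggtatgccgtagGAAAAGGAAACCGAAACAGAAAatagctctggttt
Ifit1, chr19:34640760-34640819, plus strand: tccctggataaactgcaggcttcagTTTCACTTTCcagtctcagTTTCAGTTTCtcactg
Rsad2, chr12:26456538-26456597, minus strand: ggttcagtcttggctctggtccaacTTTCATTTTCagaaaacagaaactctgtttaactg
Bst2, chr8:71537568-71537627, minus strand: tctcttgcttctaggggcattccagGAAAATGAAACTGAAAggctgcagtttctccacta
Igtp, chr11:58199496-58199555, plus strand: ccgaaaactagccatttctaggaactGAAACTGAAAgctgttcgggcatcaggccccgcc
Gbp7, chr3:142530258-142530317, plus strand: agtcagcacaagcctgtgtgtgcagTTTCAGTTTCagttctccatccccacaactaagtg
Cxcl10, chr5:92349068-92349127, minus strand: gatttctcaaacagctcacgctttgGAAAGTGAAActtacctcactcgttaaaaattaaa
Isg15 held 3 overlapping copies, Ifit1 and Bst2 held 2 each in the searched window, and the other genes shown held 1. No GAS was matched in the windows of Isg15, Ifit1, Rsad2 and Cxcl10.

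Levels below are counts per 1000000 (CPM) scaled by TMM, edgeR's normalization for library composition, and fold changes and p-values are from edgeR's quasi-likelihood fit over all 9 libraries, with Benjamini-Hochberg adjustment over the 22430 genes tested. Calls needed an adjusted p of at most 0.05 together with a log2 fold change of at least 1 in size. Libraries held between 28756305 and 79836881 counts. Where nothing in the labels says that libraries came from separate animals, p-values measure the spread between these libraries, which may be partly technical. As markers of the tissue, 8 dermal fibroblast genes summed to between 10796 and 26068 CPM, while 8 epidermal genes summed to between 2411 and 16260 CPM, so the sheets labelled dermis were not free of epidermal transcripts. Skeletal muscle genes summed to between 98.3 and 2232 CPM and cartilage genes to between 338 and 1852 CPM.

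The clearest pattern of the interferon-stimulated genes lay within the control group. The median SD of log2 CPM over the 3 VAS+H2O libraries was 0.94 for the 41 genes, against 0.20 for the 16560 tested genes with a mean of 1 CPM or more. In IMQ+H2O it was 0.15 for the 41 genes and 0.15 for all those genes. In IMQ+XYF it was 0.31 against 0.24. The highest VAS+H2O library exceeded the lowest by a factor of 2 or more for 37 of 41 interferon-stimulated genes (90.2%), against 14% of the 16560 genes. That held for 2 of 41 (4.88%) in IMQ+H2O, against 10.1%, and for 10 of 41 (24.4%) in IMQ+XYF, against 18.3%.

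VAS+H2O replicate 3 was the highest of all 9 libraries for 34 of the 41 genes. Within the control group it was the highest for 38 of 41 (92.7%), against 34.2% of all tested genes. VAS+H2O replicate 2 was the lowest of all 9 libraries for 21 genes, 20 of them antiviral, and IMQ+XYF replicate 2 was the lowest for 15. No IMQ+H2O library was the lowest for any of the 41 genes. A control was both the highest and the lowest of the 9 libraries for 16 of 41 genes, and for 19 a control was the highest and an IMQ+XYF library the lowest. For the 41 genes, the counts, medians and main fold changes against the control are therefore given below with and without replicate 3. That library was singled out after the data were examined.

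**Figure D1:**
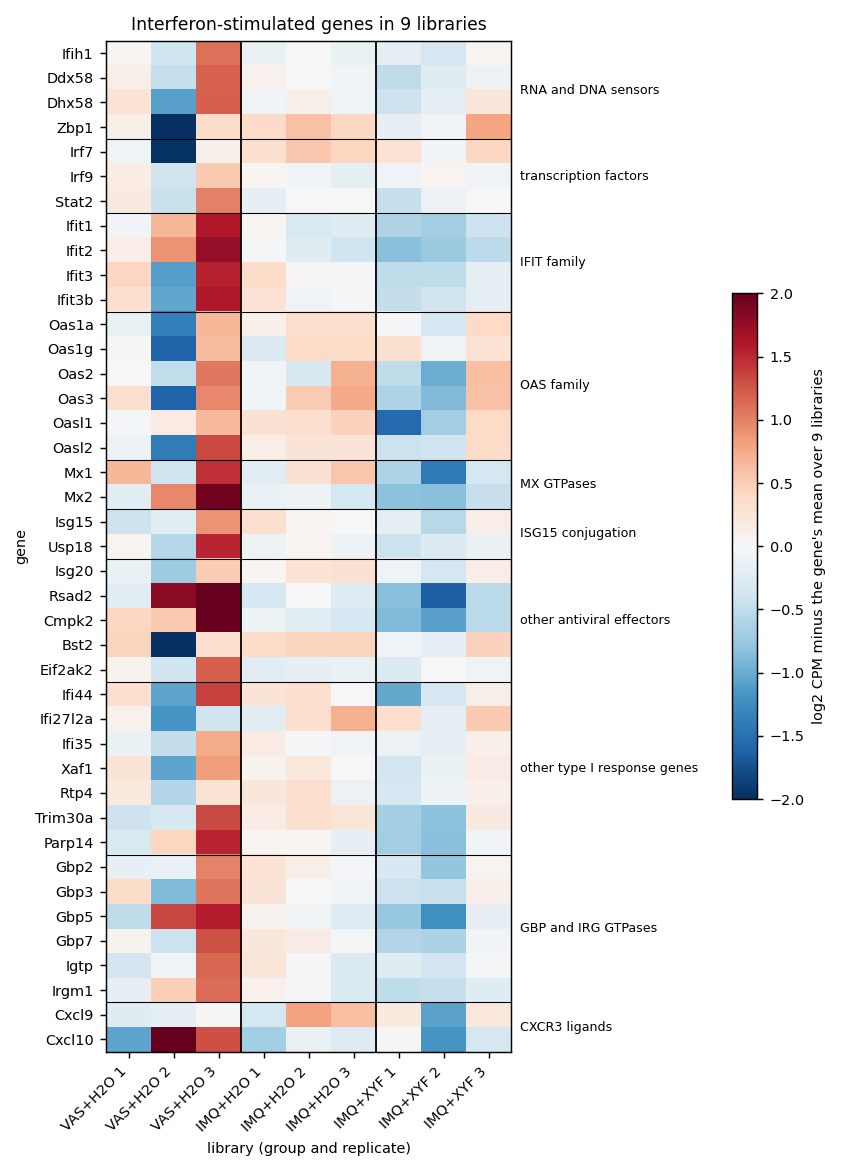
The heat map gives, for each of 41 interferon-stimulated genes in rows and each of 9 libraries in columns, the log2 CPM minus the gene's mean over the libraries, with genes grouped by role and colours limited at 2 and -2. VAS+H2O replicate 3 is red for nearly every gene, VAS+H2O replicate 2 is blue for most antiviral genes but red for Ifit1, Ifit2, Mx2, Rsad2, Gbp5 and Cxcl10, and the IMQ+H2O libraries are pale.

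As classes, the antiviral and the interferon-gamma genes stood apart in VAS+H2O replicate 2, but single genes did not all follow their class. It was the lowest control library for 24 of 33 antiviral genes (72.7%) and for 2 of 8 interferon-gamma genes (25%), against 35.8% of all tested genes. It was above replicate 1 for 9 of 33 antiviral genes (27.3%) and 6 of 8 interferon-gamma genes (75%), against 51.2% of all tested genes. Of the 6, Gbp2 and Cxcl9 were only 1.03 times as high as in replicate 1. As a mean of log2 CPM centred on each gene, the antiviral genes stood at 0.07, -0.59 and 1.06 in VAS+H2O replicates 1, 2 and 3. The interferon-gamma genes stood at -0.26, 0.31 and 1.06. Their mean in replicate 2 rested on Cxcl10 at 2.33, Gbp5 at 1.33 and Irgm1 at 0.48. Gbp2, Gbp3, Gbp7, Igtp and Cxcl9 were at -0.13, -0.88, -0.43, -0.05 and -0.20 in that library. In the 6 libraries with imiquimod the antiviral mean minus the interferon-gamma mean was between -0.09 and 0.30. In VAS+H2O replicates 1, 2 and 3 it was 0.33, -0.90 and 0.0012. The contrast in replicate 2 is a description of 1 library and carries no test.

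The split also ran through the antiviral genes, and through single families. Ifit1, Ifit2, Mx2, Rsad2 and Parp14 were higher in VAS+H2O replicate 2 than in replicate 1, by factors of 1.65, 1.69, 2.26, 4.06 and 1.67. Bst2 and Zbp1, a sensor of Z-form nucleic acids, were at 0.154 and 0.170 of replicate 1. Irf7, the transcription factor that amplifies type I interferon production, was at 0.271 and Ifit3 at 0.347. Cxcl10 was 10.4 times as high in replicate 2 as in replicate 1, and was the only interferon-stimulated gene with its highest level of all 9 libraries there.

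**Figure D2:**
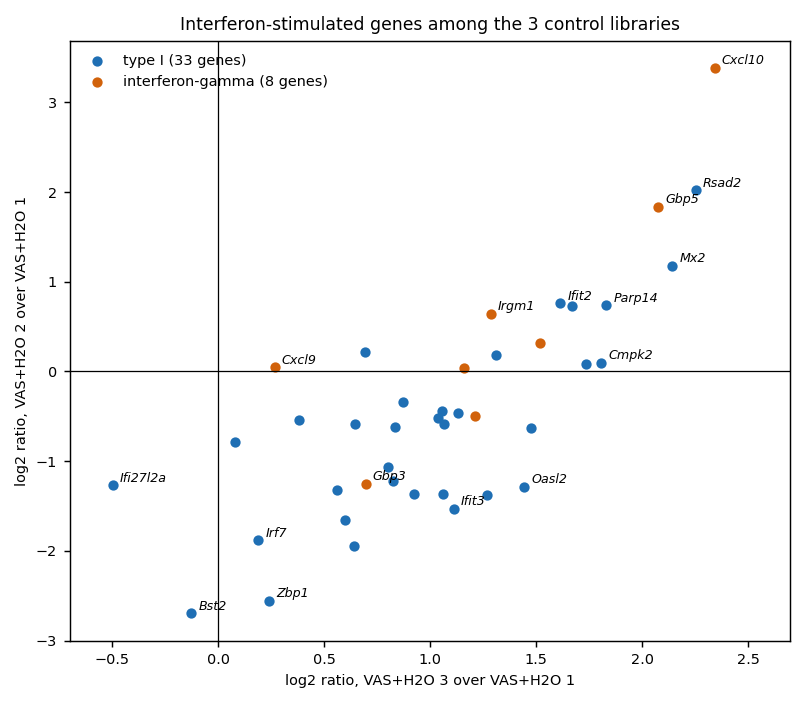
Each point is 1 gene, with the log2 ratio of VAS+H2O replicate 3 to replicate 1 on the horizontal axis and that of replicate 2 to replicate 1 on the vertical axis, in blue for 33 antiviral and in orange for 8 interferon-gamma genes, with selected genes named. All but 2 genes lie right of 0, while replicate 2 holds genes on both sides, from Cxcl10 at the top to Bst2 at the bottom.

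Other measures moved among the control libraries too. Replicate 3 had 78781537 counts against 41005926 and 37229568 in replicates 1 and 2. Its 11 immediate early genes, which rise quickly with stress or handling, summed to 21171 CPM against 15350 and 15543. Its 8 skeletal muscle genes summed to 465 CPM against 1504 and 2167. Replicate 2 had the highest sum of the 12 monocyte and macrophage genes in its group, 1004 CPM against 566 and 587, and of the 8 epidermal genes, 7507 against 4987 and 4290. The part of these measures in the spread of the interferon-stimulated genes was not tested. In bulk tissue, fewer cells of a type and less RNA per cell cannot be told apart.

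The model group was set against the control to see what imiquimod did to these genes. None of the 41 genes was called, where 0.994% of all tested genes were. By DESeq2, 5 were called lower, namely Ifit1, Ifit2, Mx2, Rsad2 and Cmpk2, where 4.23% of all tested genes were called. DESeq2 called 0 of the 41 without VAS+H2O replicate 3, against 3.47% of all tested genes. At an unadjusted p under 0.05 edgeR gave 8 of 41 genes lower (19.5%, against 10.8% of all tested genes) and 0 higher (against 10.1%). The 8 were Ifit1, Ifit2, Mx2, Rsad2, Cmpk2, Gbp5, Irgm1 and Cxcl10, 5 of 33 antiviral and 3 of 8 interferon-gamma genes. With VAS+H2O replicate 3 left out, 5 were lower (12.2%, against 8.18%), namely Ifit1, Ifit2, Rsad2, Cmpk2 and Cxcl10, and 3 were higher (7.32%, against 8.53%), namely Isg20, Oas1a and Irf7. The log2 fold change was below 0 for 30 of 41 genes (73.2%, against 52.3%).

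The medians were close for both classes and turned with 1 library. The median log2 fold change by imiquimod was -0.20 over the antiviral genes and -0.39 over the interferon-gamma genes, against -0.02 over all tested genes. Without VAS+H2O replicate 3 the medians were 0.29 and 0.19, against -0.00426 over all tested genes, and only 10 of 41 genes (24.4%, against 50.4%) were below 0. Without VAS+H2O replicate 2 they were -0.56 and -0.68, with 35 of 41 genes below 0. The direction of the interferon-stimulated genes as a whole thus rested on VAS+H2O replicate 3. The antiviral median minus the interferon-gamma median was 0.18 with all libraries, and ranged from 0.06 to 0.23 when any 1 library was left out.

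Markers of other cells and of handling moved with this comparison. Of 8 tested cartilage genes, 8 were lower by imiquimod at an unadjusted p under 0.05 and 2 of them were called lower, where 0.348% of all tested genes were. The cartilage list summed to between 1087 and 1852 CPM in VAS+H2O and between 338 and 514 CPM in IMQ+H2O. Of 11 immediate early genes, 9 were lower at that p (81.8%, against 10.8% of all tested genes), and they summed to between 15350 and 21171 CPM in VAS+H2O and between 8969 and 11590 CPM in IMQ+H2O. Of 8 dermal fibroblast genes 3 were lower (37.5%) and of 8 epidermal genes 2 were lower (25%), against the same 10.8%. Of 7 endothelial genes 3 were higher (42.9%, against 10.1% of all tested genes). Their part in the levels of the interferon-stimulated genes was not tested.

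**Figure D3:**
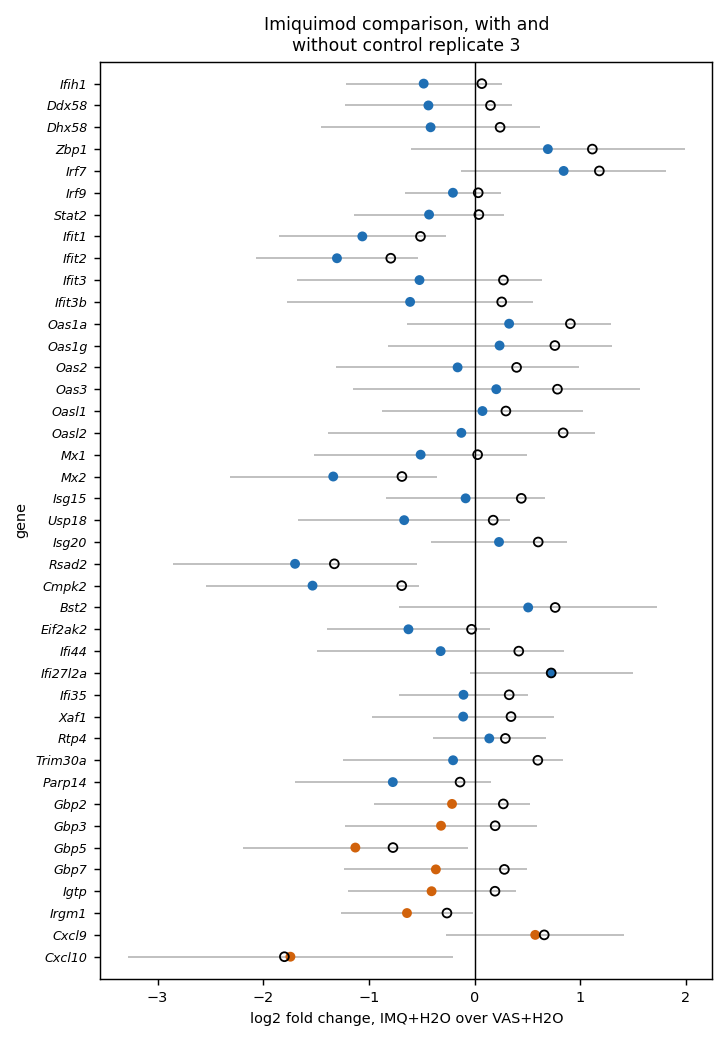
Each row is 1 gene, and the horizontal axis is the log2 fold change of IMQ+H2O over VAS+H2O, with filled points (blue antiviral, orange interferon-gamma) and grey 95% intervals from the fit of 9 libraries and open circles from the fit without VAS+H2O replicate 3. With replicate 3, 30 of 41 genes lie left of 0, and without it 10 do, among them Ifit1, Ifit2, Mx2, Rsad2, Cmpk2, Gbp5 and Cxcl10.

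All 10 genes that stayed below 0 without that library, except Eif2ak2, were also higher in VAS+H2O replicate 2 than in replicate 1. Rsad2 (chr12:26442746-26456452) stood at 35.4, 144 and 169 CPM in VAS+H2O replicates 1 to 3, at 32.1, 40.7 and 34.3 in IMQ+H2O and at 22.8, 13.2 and 28.3 in IMQ+XYF. Replicates 2 and 3 of the control were high, and replicate 1 was among the IMQ+H2O libraries. The log2 fold change by imiquimod was -1.70 ± 0.51 (SE; edgeR adjusted p = 0.121), and -1.33 without VAS+H2O replicate 3 (edgeR adjusted p = 0.267).

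Ifit2, an RNA-binding relative of Ifit1 in the Ifit cluster on chromosome 19, stood at 72.3, 122 and 221 CPM in VAS+H2O, at 63.7, 55.5 and 49.7 in IMQ+H2O and at 36.9, 39.2 and 45.6 in IMQ+XYF. All 3 groups were separate from each other, in that order. The log2 fold change by imiquimod was -1.30 ± 0.34 (SE; edgeR adjusted p = 0.0916), and -0.79 without VAS+H2O replicate 3. Ifit1 had the same order of groups, with 79.5, 131 and 253 CPM in VAS+H2O, 85.3, 67.0 and 70.0 in IMQ+H2O and 54.8, 51.4 and 61.9 in IMQ+XYF. Its IMQ+H2O replicate 1 lay above VAS+H2O replicate 1, and its log2 fold change by imiquimod was -1.06 ± 0.35 (SE; edgeR adjusted p = 0.144), and -0.51 without VAS+H2O replicate 3.

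Cmpk2, a mitochondrial nucleotide kinase gene next to Rsad2, stood at 40.5, 43.2 and 142 CPM in VAS+H2O, at 28.3, 25.8 and 23.9 in IMQ+H2O and at 16.5, 14.2 and 20.8 in IMQ+XYF. The groups did not overlap, although replicate 3 was more than 3 times the other controls. Its log2 fold change by imiquimod was -1.53 ± 0.45 (SE; edgeR adjusted p = 0.115), and -0.69 without that library. Cmpk2 and Ifit2 were the only 2 of 41 genes lower in every IMQ+H2O library than in every control (4.88%, against 16.5% of all tested genes). They were again the 2 that did so without VAS+H2O replicate 3, against 20.4%.

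The 2 Mx genes encode dynamin-like GTPases that block virus replication. Mx2, which the annotation lists as a polymorphic pseudogene, stood at 22.8, 51.5 and 101 CPM in VAS+H2O, at 24.1, 24.6 and 20.6 in IMQ+H2O and at 14.9, 14.8 and 19.2 in IMQ+XYF. Control replicate 1 lay among the IMQ+H2O libraries, and the log2 fold change by imiquimod was -1.34 ± 0.43 (SE; edgeR adjusted p = 0.139), and -0.69 without VAS+H2O replicate 3. Mx1, of which most laboratory strains carry a defective copy, stood at 44.9, 21.4 and 78.2 CPM in VAS+H2O, at 24.6, 35.2 and 41.8 in IMQ+H2O and at 18.5, 10.6 and 22.3 in IMQ+XYF. Here control replicate 2 was the low one, unlike for Mx2, and the IMQ+H2O libraries lay within the range of the controls.

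Ifit3 and Ifit3b, neighbours of Ifit1 and Ifit2, followed the other order of controls. Ifit3 stood at 289, 100 and 625 CPM in VAS+H2O, at 278, 219 and 210 in IMQ+H2O and at 151, 152 and 188 in IMQ+XYF, so that the controls lay on both sides of the other groups. Ifit3b likewise ran from 35.9 CPM in VAS+H2O replicate 2 to 224 in replicate 3. Ifit3 and Ifit3b, and likewise Oas1a and Oas1g, are near-identical copies whose reads the counting may have split, so their levels are uncertain.

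The 6 Oas genes encode sensors of double-stranded RNA that make the messenger for RNase L, and Oas-like relatives. Their median log2 fold change by imiquimod was 0.14, the only role among the antiviral genes with a median above 0. It was 0.77 without VAS+H2O replicate 3. The medians of Isg15 conjugation, transcription factors, sensors and other type I response genes were then above 0 too. Those of the Ifit family, the Mx genes and the other antiviral effectors stayed below 0, at -0.13, -0.33 and -0.03. Oasl2 stood at 97.7, 40.1 and 265 CPM in VAS+H2O, at 117, 126 and 127 in IMQ+H2O and at between 78.3 and 139 in IMQ+XYF. The controls spanned all other libraries, and the IMQ+H2O libraries differed little among themselves. Oas1g ranged from 1.45 CPM in VAS+H2O replicate 2 to 6.91 in replicate 3, and Oas1a from 4.84 to 19.9 in the same libraries.

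The 3 antiviral genes highest by imiquimod were all at their lowest in VAS+H2O replicate 2. Irf7 stood at 89.9, 24.3 and 103 CPM in VAS+H2O, at 120, 140 and 130 in IMQ+H2O and at 118, 92.0 and 128 in IMQ+XYF. Every IMQ+H2O library was above every control, and the log2 fold change of 0.84 ± 0.43 (SE) had an edgeR adjusted p of 0.293. Without VAS+H2O replicate 2 the log2 fold change was 0.43, and without replicate 3 it was 1.18. With any 1 control left out the edgeR adjusted p was between 0.239 and 0.338.

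Zbp1 stood at 45.1, 7.64 and 53.2 CPM in VAS+H2O, at 54.0, 62.2 and 55.5 in IMQ+H2O and at 36.9, 39.8 and 71.6 in IMQ+XYF. It too lay above every control in IMQ+H2O, narrowly at the nearest point. Its log2 fold change was 0.69 ± 0.57 (SE; edgeR adjusted p = 0.516), 0.22 without VAS+H2O replicate 2 and 1.12 without replicate 3. Irf7 and Zbp1 were the only 2 of 41 genes higher in every IMQ+H2O library than in every control (4.88%, against 15.1% of all tested genes). There were 10 such genes without VAS+H2O replicate 3 (24.4%, against 20.1%). Ifi27l2a, which encodes a small hydrophobic protein, stood at 76.3, 31.7 and 54.1 CPM in VAS+H2O, at 61.5, 90.1 and 117 in IMQ+H2O and at 90.6, 62.9 and 102 in IMQ+XYF. Its groups overlapped, with a log2 fold change by imiquimod of 0.73 ± 0.34 (SE; edgeR adjusted p = 0.263), and 0.73 without VAS+H2O replicate 3.

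Bst2 showed how far 1 control library could set a mean. It stood at 133, 20.6 and 122 CPM in VAS+H2O, at 127, 132 and 133 in IMQ+H2O and at 93.4, 86.8 and 135 in IMQ+XYF. Apart from VAS+H2O replicate 2, the controls and the IMQ+H2O libraries held nearly the same level. The log2 fold change by imiquimod was 0.51 ± 0.54 (SE; edgeR adjusted p = 0.623), and 0.03 without that library. It was 0.76 without VAS+H2O replicate 3.

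Usp18 is the protease that takes Isg15 off its targets and restrains the type I receptor. Isg15 stood at 32.4, 36.7 and 80.3 CPM in VAS+H2O, at 53.9, 44.3 and 43.0 in IMQ+H2O and at 37.6, 29.2 and 47.3 in IMQ+XYF. Usp18 stood at 30.0, 19.4 and 83.3 CPM, at 26.9, 29.8 and 27.1, and at 21.4, 23.8 and 26.3 in the same order of groups. For both genes VAS+H2O replicate 3 was alone at the top. Stat2, a subunit of the factor that binds the ISRE, stood at 113, 73.6 and 202 CPM in VAS+H2O, at 89.8, 100 and 99.3 in IMQ+H2O and at 73.0, 92.7 and 101 in IMQ+XYF, and the controls spanned the IMQ+H2O libraries.

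Among the sensors, Ifih1 (MDA5), Ddx58 (RIG-I) and Dhx58 (LGP2) recognise viral RNA. Their log2 fold changes by imiquimod were -0.48, -0.44 and -0.42, with edgeR adjusted p of 0.426, 0.503 and 0.637. All 3 turned to above 0 without VAS+H2O replicate 3, at 0.07, 0.15 and 0.24. In each, VAS+H2O replicate 3 was the highest and replicate 2 the lowest of its group. Eif2ak2 (PKR), which halts translation on sensing double-stranded RNA, followed the same order, from 45.4 CPM in replicate 2 to 137 in replicate 3.

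Per kilobase of exon, Ifit3 had the highest mean of the 41 genes in VAS+H2O, at 194 ± 152 RPKM (SD, n = 3), and Oas3 the lowest, at 1.28 ± 0.89 RPKM. Without replicate 3 the control mean of Ifit3 was 112 RPKM, under the 117 RPKM of Ifi27l2a. In IMQ+H2O the highest mean level per kilobase was that of Ifi27l2a, at 193 ± 59.5 RPKM (SD, n = 3), followed by Bst2 at 145 ± 3.59 RPKM and Ifit3 at 135 ± 21.3 RPKM. These 3 means lay within 1 SD of a neighbour, so their order was not settled.

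**Figure D4:**
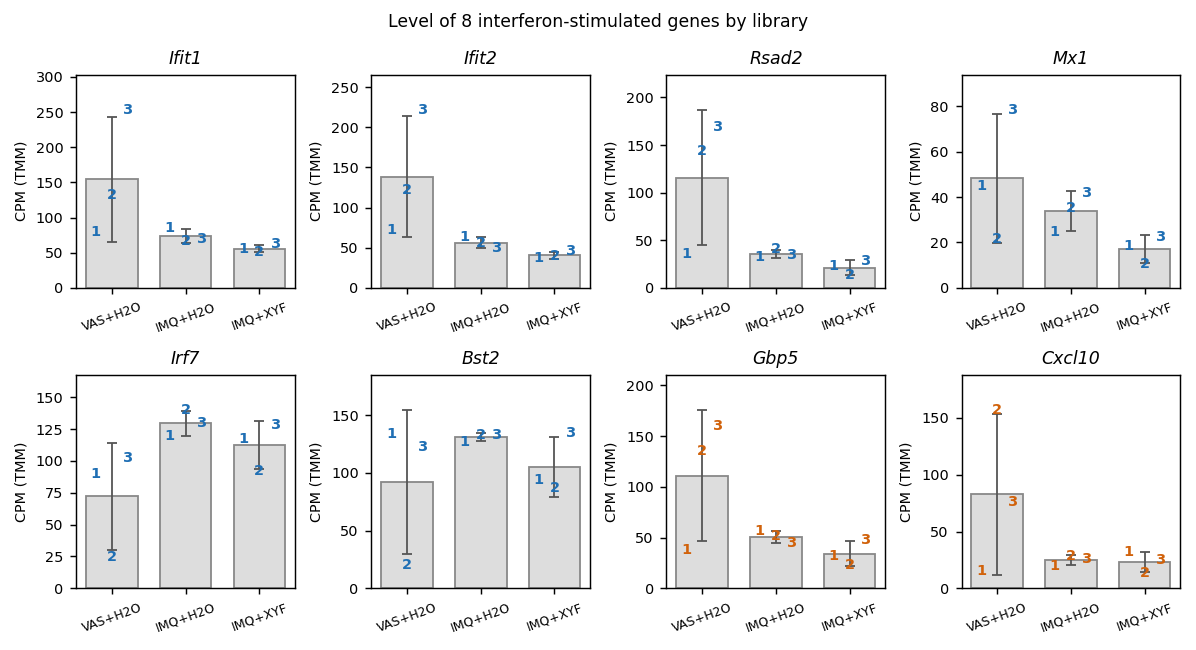
Levels in TMM-scaled CPM are plotted for 8 genes, with grey bars for the mean of 3 libraries, error bars for the SD, and the digits 1 to 3 for the replicates of each group, blue for antiviral and orange for interferon-gamma genes. In VAS+H2O, replicate 2 is high for Ifit1, Ifit2, Rsad2, Gbp5 and Cxcl10 and lowest for Mx1, Irf7 and Bst2, and the IMQ+XYF libraries lie below all IMQ+H2O libraries for Ifit1, Ifit2, Rsad2 and Mx1.

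The interferon-gamma genes are led by the Gbp and IRG GTPases, which attack vacuoles that hold bacteria or parasites. All 6 had a log2 fold change by imiquimod below 0, where 52.3% of all tested genes did. Without VAS+H2O replicate 3, Gbp2, Gbp3, Gbp7 and Igtp turned above 0, and the median of the 6 was 0.19. Gbp5, which also promotes inflammasome assembly, stood at 37.8, 135 and 160 CPM in VAS+H2O, at 56.5, 51.1 and 44.8 in IMQ+H2O and at 31.8, 22.8 and 47.9 in IMQ+XYF. Control replicate 1 lay below all IMQ+H2O libraries, and the log2 fold change by imiquimod was -1.13 ± 0.47 (SE; edgeR adjusted p = 0.218), and -0.77 without VAS+H2O replicate 3. Irgm1, a regulator of the other IRG proteins, stood at 54.7, 85.4 and 133 CPM in VAS+H2O, at 65.0, 60.4 and 50.2 in IMQ+H2O and at 43.2, 44.8 and 51.9 in IMQ+XYF. Its log2 fold change by imiquimod was -0.64 ± 0.28 (SE; edgeR adjusted p = 0.231) and -0.26 without VAS+H2O replicate 3, with control replicate 1 inside the IMQ+H2O range.

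Gbp2 stood at 97.1, 99.7 and 217 CPM in VAS+H2O, at 132, 118 and 107 in IMQ+H2O and at 87.6, 63.7 and 113 in IMQ+XYF. Gbp3 stood at 128, 53.6 and 208 CPM, at 119, 99.5 and 94.7, and at 73.1, 72.9 and 105 in the same order of groups. Their log2 fold changes by imiquimod were -0.21 and -0.32, and without VAS+H2O replicate 3 they turned to 0.27 and 0.20. Igtp stood at 37.6, 46.9 and 108 CPM in VAS+H2O, at 57.3, 47.5 and 40.3 in IMQ+H2O and at 41.1, 37.4 and 47.1 in IMQ+XYF, where only VAS+H2O replicate 3 stood apart.

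The 2 CXCR3 ligands went different ways. Cxcl9, which is induced mainly by interferon-gamma, stood at 11.2, 11.5 and 13.4 CPM in VAS+H2O, at 10.4, 23.2 and 20.1 in IMQ+H2O and at 15.2, 6.30 and 15.3 in IMQ+XYF. It had the narrowest control range of the 41 genes, with a ratio of highest to lowest of 1.20. Its log2 fold change by imiquimod was 0.57 ± 0.37 (SE; edgeR adjusted p = 0.405), and 0.66 without VAS+H2O replicate 3. Cxcl10 stood at 15.0, 157 and 76.1 CPM in VAS+H2O, at 19.5, 28.3 and 26.2 in IMQ+H2O and at 31.7, 13.7 and 24.5 in IMQ+XYF. It had the widest control range, with a ratio of 10.4, and a log2 fold change by imiquimod of -1.74 ± 0.68 (SE; edgeR adjusted p = 0.193). That change was -0.89 without VAS+H2O replicate 2 and -1.80 without replicate 3.

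The treated and the model groups were set side by side to see what XYF did on top of imiquimod. None of the 41 genes was called, where 0.00892% of all tested genes were, and DESeq2 called none either, where it called 0.941%. At an unadjusted p under 0.05 edgeR gave 0 of 41 genes (against 11.7% of all tested genes). DESeq2 gave 1, a count to which that edgeR share does not apply. The DESeq2 share over all tested genes is not given, so nothing is read from that count. The log2 fold change was below 0 for 39 of 41 genes (95.1%, against 49.2% of all tested genes). The median was -0.31 over the antiviral genes and -0.38 over the interferon-gamma genes, against 0.00545 over all tested genes, so the difference between the classes was 0.07. Irf9 and Eif2ak2 were above 0, at 0.03 and 0.06. These genes respond to common signals and are not independent of each other, so the count of directions carries no p-value.

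Every IMQ+XYF library lay below every IMQ+H2O library for 11 of 41 genes (26.8%, against 8.74% of all tested genes), and above for 0 (against 9.22%). The 11 were Ifit1, Ifit2, Ifit3, Ifit3b, Mx1, Mx2, Rsad2, Usp18, Ddx58, Cmpk2 and Gbp7, which is 10 of 33 antiviral genes and 1 of 8 interferon-gamma genes. With 3 libraries a group an exact permutation test of a single gene could not go below p = 0.1. The estimate of spread in the fit over all libraries also drew on the wide control group. In a fit of the 6 libraries of these groups alone, 10 of 41 genes were lower at an unadjusted p under 0.05, where 5.52% of all tested genes were, and the lowest edgeR adjusted p among them was 0.423.

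Mx1 had the lowest log2 fold change by XYF of the 41 genes, at -0.98 ± 0.45 (SE; edgeR adjusted p = 0.433). Its 3 IMQ+XYF libraries, given above, all lay below the lowest IMQ+H2O library of 24.6 CPM. Oasl1, an Oas-like gene that restrains Irf7 translation, came next at -0.77 ± 0.42 (SE; edgeR adjusted p = 0.497). Its levels were 8.78, 10.2 and 14.2 CPM in VAS+H2O, 11.2, 11.4 and 12.4 in IMQ+H2O and 3.05, 5.59 and 11.9 in IMQ+XYF, so that 1 IMQ+XYF library lay within IMQ+H2O. Rsad2 followed at -0.74 ± 0.50 (SE; edgeR adjusted p = 0.568).

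Among the interferon-gamma genes, the lowest log2 fold changes by XYF were those of Gbp5 at -0.57, Cxcl9 at -0.55 and Gbp7 at -0.53, with edgeR adjusted p of 0.638, 0.568 and 0.592. Gbp7 stood at 87.1, 61.8 and 201 CPM in VAS+H2O, at 97.7, 92.9 and 81.4 in IMQ+H2O and at 55.4, 53.6 and 79.7 in IMQ+XYF. Its IMQ+XYF replicate 3 came close to the lowest IMQ+H2O library. Cxcl10 at -0.08 and Igtp at -0.21 were the highest of the 8, and Cxcl10 turned to 0.21 without IMQ+XYF replicate 2. Gbp5 and Cxcl9 overlapped between the groups.

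**Figure D5:**
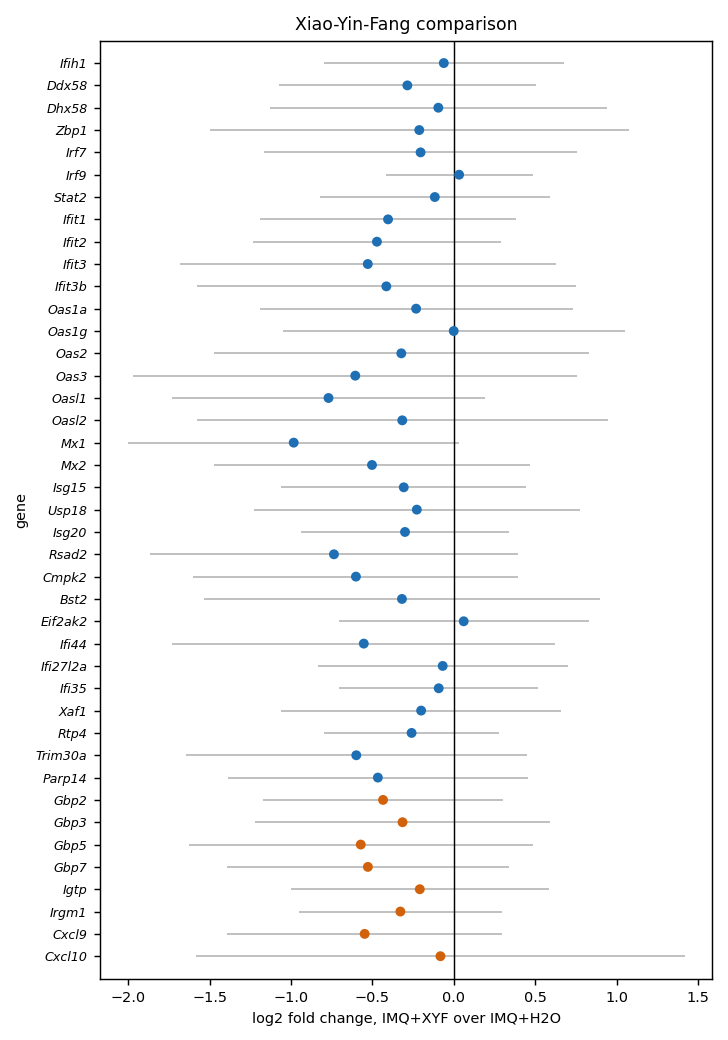
Each row is 1 gene, and the horizontal axis is the log2 fold change of IMQ+XYF over IMQ+H2O from the fit of 9 libraries, with 95% intervals in grey and points in blue for antiviral and orange for interferon-gamma genes. Points lie left of 0 for 39 of 41 genes, and every interval includes 0.

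The IMQ+XYF libraries were not alike. The mean centred log2 CPM of the antiviral genes was -0.42, -0.47 and 0.07 in IMQ+XYF replicates 1 to 3, against 0.05, 0.13 and 0.10 in IMQ+H2O. For the interferon-gamma genes it was -0.33, -0.77 and -0.06, against 0.02, 0.10 and -0.07. Replicate 3 thus lay within or next to the IMQ+H2O libraries. Without IMQ+XYF replicate 2 the medians by XYF were -0.17 and -0.21, and without replicate 3 they were -0.49 and -0.58. When any 1 library was left out, between 35 and 39 of 41 genes were below 0, against 45.8% to 50.3% of all tested genes, and 32 genes were below 0 in all of these fits.

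Markers of other tissue parts moved with this comparison. IMQ+XYF replicate 1 had 16260 CPM in the 8 epidermal genes and 98.3 CPM in the 8 skeletal muscle genes, against ranges of 2411 to 3688 and 1035 to 2232 in IMQ+H2O. Of 8 tested cartilage genes 7 were higher by XYF at an unadjusted p under 0.05, as were 6 of 8 epidermal and 6 of 11 immediate early genes, where 6.35% of all tested genes were. The cartilage list summed to 617, 1822 and 1006 CPM in IMQ+XYF, and the immediate early genes to between 12137 and 16462 CPM. At that p 7 of 8 skeletal muscle and 4 of 7 endothelial genes were lower, where 5.39% of all tested genes were. The 7 endothelial genes summed to 745, 424 and 1040 CPM in IMQ+XYF and to between 1110 and 1161 in IMQ+H2O. The 5 leukocyte genes summed to 188, 152 and 221 CPM, against 163, 308 and 286. Their part in the lower interferon-stimulated genes was not tested.

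The comparison of IMQ+XYF with VAS+H2O set the treated group against the control, and shares its libraries with the other comparisons. Of the 41 genes, 1 was called by edgeR, Ifit2, where 1.2% of all tested genes were. Its log2 fold change was -1.77 ± 0.34 (SE; edgeR adjusted p = 0.0441), a level 3.42 times lower. The call was lost in 8 of the 9 fits without 1 library, with edgeR adjusted p from 0.0528 to 0.134, and held without VAS+H2O replicate 1, at 0.0185. Cmpk2, Rsad2, Mx2 and Ifit1 came next, at -2.13, -2.43, -1.84 and -1.47, with edgeR adjusted p of 0.0534, 0.0536, 0.0710 and 0.0720. Without VAS+H2O replicate 3, Ifit2, Cmpk2, Rsad2, Mx2 and Ifit1 were at -1.26, -1.29, -2.06, -1.19 and -0.91. For all 5 genes every IMQ+XYF library lay below every control, as for Irgm1, so that 6 of 41 genes did not overlap (14.6%, against 10.3% of all tested genes). The same 6 genes did so without VAS+H2O replicate 3, against 14.2%.

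DESeq2 called 9 of the 41 genes lower in the treated group, namely Ifit1, Ifit2, Mx1, Mx2, Rsad2, Cmpk2, Parp14, Gbp5 and Cxcl10, where 3.17% of all tested genes were called. It called 4 without VAS+H2O replicate 3 (9.76%, against 2.63%), namely Ifit2, Mx2, Rsad2 and Cmpk2. The edgeR medians were -0.54 over antiviral and -0.77 over interferon-gamma genes, against -0.02 over all tested genes, and 34 of 41 genes (82.9%, against 52.7%) were below 0. Without VAS+H2O replicate 3 the medians were 0.04 and -0.20, and 21 of 41 genes (51.2%, against 50.5%) were below 0.

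The interferons themselves were barely counted. Of 21 interferon ligand genes none had enough counts to be tested, and 14 had none in any library. Ifnb1, encoding interferon beta, had 3 reads in VAS+H2O replicate 3, 5 and 4 in IMQ+H2O replicates 2 and 3, 6 in IMQ+XYF replicate 1 and 0 elsewhere. Ifng, encoding interferon-gamma, had 5 reads in VAS+H2O replicate 3, 3 in IMQ+H2O replicate 2 and 0 elsewhere. A count of 0 allows up to 3 reads, or 0.0373 to 0.103 CPM over the libraries, and covers counting error only. Differences in ligand transcripts were not detectable at this depth.

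Of the 6 receptor genes, 0 were called in any comparison. Ifnar1, a chain of the type I receptor, ranged from 58.6 to 76.4 CPM, and Ifnar2, the other chain, from 39.4 to 56.5 CPM. Ifngr1 and Ifngr2 ranged from 109 to 153 and from 27.2 to 41.6 CPM. Ifnlr1, of the type III receptor, ranged from 2.73 to 9.81 CPM, and Il10rb, its partner chain, from 13.6 to 40.3 CPM. Ifnar1, at 69.7, 76.4 and 75.6 CPM in the 3 control libraries, did not have the spread of the interferon-stimulated genes there.

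Of 13 genes of JAK-STAT and IRF signalling, 0 were called in any comparison, with 1 higher (7.69%, against 10.1% of all tested genes) and 1 lower (7.69%, against 10.8%) by imiquimod at an unadjusted p under 0.05. Irf1, the target of interferon-gamma, stood at 121, 232 and 208 CPM in VAS+H2O, at 136, 95.5 and 123 in IMQ+H2O and at 75.0, 136 and 154 in IMQ+XYF, with replicate 2 the highest control. Irf8, a factor of myeloid cells, ranged from 6.43 to 15.1 CPM. Socs1 and Socs3, inhibitors of the pathway, ranged from 5.24 to 9.17 and from 413 to 702 CPM.

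Of 16 genes of Toll-like receptor 7 and nucleic acid sensing, 0 were called in any comparison, and by imiquimod 3 were higher (18.8%, against 10.1%) and 0 lower at an unadjusted p under 0.05. Tlr7 stood at 5.02, 6.86 and 3.01 CPM in VAS+H2O, at 4.27, 5.46 and 1.74 in IMQ+H2O and at 2.65, 2.16 and 3.62 in IMQ+XYF, and its groups overlapped. Myd88 ranged from 49.5 to 88.7 CPM. Siglech, the marker most specific to plasmacytoid dendritic cells among those listed, was at 1.29, 1.83 and 1.96 CPM in VAS+H2O, at 1.10, 0.655 and 0.917 in IMQ+H2O and at 0.448, 0.895 and 0.422 in IMQ+XYF. Its controls all lay above the other 6 libraries. Of all tested genes, 16.5% were lower in every IMQ+H2O library than in every control, and 10.3% were in every IMQ+XYF library. The whole list of 8 plasmacytoid dendritic cell genes, of which 7 were tested and 1 was at 0 in all libraries, summed to between 463 and 617 CPM in VAS+H2O, 309 and 355 in IMQ+H2O and 480 and 835 in IMQ+XYF. Its median log2 fold change was -0.53 by imiquimod, with 3 genes lower at an unadjusted p under 0.05 (42.9%, against 10.8% of all tested genes). By XYF the median was 0.22, with 1 gene higher at that p (14.3%, against 6.35%). Most of the sum came from Ly6d, also a gene of keratinocytes, and Tcf4, also a gene of other tissues.

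Further interferon-responsive genes behaved in a mixed way. Of 50 tested genes of the type I response outside the 41, 0 were called, and by imiquimod 8 were higher (16%, against 10.1% of all tested genes) and 2 lower (4%, against 10.8%) at an unadjusted p under 0.05. The 8 were Ifitm1, Ifitm2, Ifitm3, Slfn1, Slfn4, Ifi205, Ly6a and Ms4a4c. Ifitm1, of a family that blocks virus entry, stood at 21.8, 25.8 and 33.0 CPM in VAS+H2O, at 57.8, 62.9 and 68.6 in IMQ+H2O and at 47.8, 28.4 and 58.2 in IMQ+XYF. Its log2 fold change by imiquimod was 1.23 (edgeR adjusted p = 0.0565), and that of Ifitm2 was 0.92 (edgeR adjusted p = 0.0343), below the size needed for a call. Slfn4, a gene of myeloid cells, had 2.03 (edgeR adjusted p = 0.0753). Of 27 further interferon-gamma genes 0 were called, with a median by imiquimod of -0.36, against -0.02 over all tested genes. At an unadjusted p under 0.05, 1 was higher and 1 lower (3.7% each, against 10.1% and 10.8%). In VAS+H2O replicates 1 to 3 the further type I genes summed to 3454, 2639 and 5050 CPM. The further interferon-gamma genes summed to 1260, 2140 and 2514 CPM there. Fold changes of both lists without VAS+H2O replicate 3 are not given.

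The leukocyte lists went different ways with imiquimod. Of 11 tested neutrophil genes 5 were called higher by imiquimod (45.5%, where 0.646% of all tested genes were), namely S100a8, S100a9, Csf3r, Mmp8 and Trem1, and the list of 12 summed to between 128 and 161 CPM in VAS+H2O, 389 and 942 in IMQ+H2O and 241 and 680 in IMQ+XYF. Itgam was called higher among 12 monocyte and macrophage genes, which summed to between 566 and 1004, 786 and 1142, and 734 and 806 CPM. Of 10 tested T and NK cell genes 0 were called by imiquimod, with a median log2 fold change of -0.21 and 2 genes each way at an unadjusted p under 0.05, and the list of 12 summed to between 21.3 and 36.6, 15.8 and 46.1, and 17.0 and 34.0 CPM. No gene of these lists was at 0 in all libraries. The part of these cells in the levels of the interferon-stimulated genes was not tested.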

How the data were processed

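RNA from ear dermis was sequenced in 9 libraries. The deposited values are whole-number counts per Ensembl gene, made by the authors without normalization. According to the study's methods and the submitters' processing notes, reads were aligned to GRCm38 with STAR 2.5. The counting tool, its use of strand and of reads with several alignments are not given in the sources used here. The methods speak of RNA from the ear sheets of more than 1 mouse, and whether a library pooled mice was not clear. No log2 CPM or RPKM value was taken from the authors.

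Groups came from the sample labels. Genes passing filterByExpr (minimum count 10) were fitted with edgeR 4.0.16 in R 4.3.3, with TMM factors and a coefficient per group over all 9 libraries. CPM are TMM-scaled, log2 CPM used a prior count of 2, and RPKM used the summed exon length in GENCODE vM21. Class means are means of log2 CPM centred per gene. Errors are SE from the F statistic or SD over 3 libraries. Overlapping genes could not be told apart where counting ignored strand, which touches up to 16.8% of exon bases of a member (Ifi35). DESeq2 1.42.0, other size factors, no filter, fits of 2 groups, a replicate block, leaving out each library and other class lists were alternatives. The scripts were tested on simulated data. The 41 genes and all lists were chosen with earlier results of these data known, and the immediate early genes were listed after the data were examined. Values in all libraries are given for called genes, the 3 highest and 3 lowest of each class by imiquimod and by XYF, and fixed examples. A gene of the signalling list is counted but its values are not reported here.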

Additional observations from a re-analysis of the deposited data

How the results depend on the processing

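Over the 14 alternative fits, no member was called by XYF, and the number called by imiquimod was 0 except for 5 by DESeq2 and 0 to 3 with 1 library left out, the 3 being Ifit2, Mx2 and Rsad2 without VAS+H2O replicate 1. For the treated group against the control, edgeR called 1 member, DESeq2 9, and 0 were called with the replicate block and in the fit of 2 groups only, and 0 to 5 with 1 library left out. Without VAS+H2O replicate 3, a setting chosen after seeing the data, DESeq2 called 0 by imiquimod and 4 for the treated group. Of 153 class medians and differences under alternatives, 151 moved by less than 1 SD between replicates. That SD was wide where it drew on the control group, so moving by less than it did not exclude a change of sign. The antiviral median by imiquimod, -0.20 with all libraries and 0.29 without VAS+H2O replicate 3, was among the 151. The interferon-gamma median, with 1 library left out, ranged from -0.68 to 0.19 by imiquimod and from -0.99 to -0.20 for the treated group, in both with the highest value without VAS+H2O replicate 3. Of 420 values for a chosen set of named members, 6 changed sign. That set left out Ifih1, Ddx58 and Dhx58, which changed sign by imiquimod without VAS+H2O replicate 3. In that fit 10 of 41 members were below 0 by imiquimod, in place of 30. With 1 library left out, Gbp2 and Gbp3 by imiquimod ranged from -0.42 to 0.27 and from -0.69 to 0.20, above 0 without VAS+H2O replicate 3. Irf9 by XYF ranged from -0.0036 without IMQ+H2O replicate 3 to 0.084. Cxcl10 by XYF ranged from -0.37 to 0.21, above 0 without IMQ+H2O replicate 2 (0.031) or IMQ+XYF replicate 2, and was 0.065 with the replicate block. The cause was not tested.

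The labels number replicates 1 to 3 in each group. Same-numbered libraries of VAS+H2O and IMQ+H2O had deviations from the group means correlating at 0.125, 0.0713 and -0.0236, those of VAS+H2O and IMQ+XYF at -0.180, -0.183 and 0.0372, and those of IMQ+H2O and IMQ+XYF at -0.109, -0.182 and 0.0950, so that the numbers did not pair the libraries. With the replicate block edgeR called 86 of all genes by imiquimod, 0 by XYF and 54 for the treated group against the control, in place of 223, 2 and 270. Other settings moved these totals by more than 1.5 times as well. DESeq2 called 948, 211 and 710, the fit of 2 groups 496, 1 and 33, and fits without 1 library 25 to 455, 0 to 4 and 12 to 592.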
